A study of Rattus norvegicus with 18 samples.

Results

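Genes that work in mitosis were followed through obstruction of the rat kidney. The set holds 38 genes chosen by name for their place in cell division. The choice was made with earlier results of these data known, so counts of called genes are descriptions, not independent support. Of the 38 genes, 37 had a row of that name among the 30957 genes of the deposited table. All 37 passed the filter on low counts, and Ccnb2 was not analysed here. Where a name had several rows, the row with most counts was used. The libraries were poly(A) RNA sequencing of renal parenchyma of rats whose left ureter had been tied with silk, a model of obstructive nephropathy called unilateral ureteral obstruction. The obstruction had lasted 1 day (n = 5), 3 days (n = 5) or 7 days (n = 5), or was labelled as 14 days (n = 3). Every group shared the ligation, and a sham group named in the design was not analysed here, so no value describes an unobstructed kidney. The labels do not tie each library to an animal, and p-values rest on differences among libraries of a group that could be technical.

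Mitosis starts when the kinase CDK1, bound to a cyclin, becomes active. Chromosomes then condense, their kinetochores are caught by the microtubules of the spindle, and a checkpoint holds the anaphase-promoting complex (APC/C) back until every kinetochore is attached. Most transcripts of this machinery are made only in the late part of the cell cycle, so that in a tissue they mark cells that are dividing or about to divide. The epithelium of the adult kidney tubule divides rarely, and tubular and interstitial cells are known to re-enter the cycle after injury. In bulk tissue more dividing cells and more RNA per dividing cell cannot be told apart.

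Library totals ran from 5488540 to 12049915 counts. All 12 proximal tubule markers had reads at each duration. The libraries labelled 14 days stood apart from the rest. Their summed tubular injury markers were at 64.2 to 303 FPKM (fragments per kilobase of gene, scaled to library size) against 6491 to 17689 in the other 15 libraries. Spp1 made up most of these sums. Spp1, Havcr1 and Lcn2 were lower than in all other libraries. Vcam1 (9.54, 1.06 and 10.9 FPKM in replicates 1 to 3) and Sox9 (3.72, 31.9 and 6.35) overlapped the others, and Krt20 reached at most 1.07. Mitochondrially encoded genes made up 14.4% to 27.4% of their counts against 7.11% to 13.6%. These 3 libraries also differed among themselves. Summed collecting duct markers were at 1642, 289 and 1485 FPKM in their replicates 1 to 3, and adipocyte markers at 185, 43.1 and 1950. Summed proximal tubule markers were at 346, 4594 and 219, highest in replicate 2. Members of a list differed. In replicate 2 Kap was at 2214 FPKM and Aqp1 at 665. There Slc5a2, Slc5a12 and Gatm were at 6.30, 0.588 and 28.6, below each of the other 15 libraries. In replicate 3 Aqp2, Aqp3 and Fxyd4 were at 777, 466 and 237 FPKM. There Scnn1g, Atp6v1g3, Slc4a1 and Foxi1 were at 0.305, 1.81, 2.44 and 0.472. Replicate 5 of day 1 also had higher collecting duct (966 FPKM) and adipocyte (119) sums than the other 4 libraries of that day, whose highest were 209 and 16.3. In it Aqp2, Aqp3 and Fxyd4 were at 371, 380 and 102 FPKM, while Atp6v1g3, at 32.8, was the lowest of that day.

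The genes share sequence near their starts. In genes of this kind, the CCAAT box is known to bind the factor NF-Y, and the cell cycle genes homology region (CHR) the MuvB complexes, which keep such genes silent in resting cells and, with B-MYB and FOXM1, turn them on before mitosis. The RefSeq promoter table (GRCr8) had an entry for 32 of the 37 genes; Ccna2, Ube2c, Aurkb, Tpx2 and Racgap1 had none. From 250 bases before to 50 bases after the annotated start, CCAAT was searched on both strands. The CHR was searched in the same way, as TTTGAA and in 1 rarer spelling. A CCAAT lay in 24 of the 32 windows (75.0%) and in 37.7% of all 27457 promoters of the table, and 2 or more lay in 59.4% and 11.5%. The CHR was present in 22 (68.8%), each with TTTGAA, against 19.5% of all promoters, and both motifs in 18 (56.2%) against 7.83%. These matches describe the letters in the window and are no evidence of binding.

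The 150 bases before the start are printed for 6 genes that were higher at 3 days and for Cdca8 and Kif11, which were not called, to let their layouts be compared. Each is written 5′ to 3′ on the strand of the gene, with CCAAT (or its reverse, ATTGG) and the CHR (TTTGAA, or its reverse TTCAAA) in capitals.
Cdk1: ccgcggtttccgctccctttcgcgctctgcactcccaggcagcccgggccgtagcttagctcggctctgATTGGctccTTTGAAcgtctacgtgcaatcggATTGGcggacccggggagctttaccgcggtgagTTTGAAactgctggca
Ccnb1: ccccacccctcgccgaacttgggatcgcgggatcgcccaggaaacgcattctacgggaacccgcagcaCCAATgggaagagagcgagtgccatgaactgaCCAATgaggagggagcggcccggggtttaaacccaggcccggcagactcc
Plk1: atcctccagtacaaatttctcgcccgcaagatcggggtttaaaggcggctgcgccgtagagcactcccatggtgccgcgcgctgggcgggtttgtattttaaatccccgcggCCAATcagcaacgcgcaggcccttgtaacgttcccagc
Top2a: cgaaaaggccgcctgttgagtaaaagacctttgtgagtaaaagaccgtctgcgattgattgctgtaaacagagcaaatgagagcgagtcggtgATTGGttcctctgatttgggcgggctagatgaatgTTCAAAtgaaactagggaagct
Cdc20: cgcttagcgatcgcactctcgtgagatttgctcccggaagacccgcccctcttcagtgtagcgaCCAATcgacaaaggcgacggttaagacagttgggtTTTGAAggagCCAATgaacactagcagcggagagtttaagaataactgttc
Prc1: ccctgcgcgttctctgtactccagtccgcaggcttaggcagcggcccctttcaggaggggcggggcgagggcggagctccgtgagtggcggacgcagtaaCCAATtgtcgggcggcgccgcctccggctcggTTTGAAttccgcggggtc
Cdca8: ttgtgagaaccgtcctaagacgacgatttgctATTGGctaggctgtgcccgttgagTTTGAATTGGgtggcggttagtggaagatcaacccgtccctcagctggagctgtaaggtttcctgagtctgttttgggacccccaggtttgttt
Kif11: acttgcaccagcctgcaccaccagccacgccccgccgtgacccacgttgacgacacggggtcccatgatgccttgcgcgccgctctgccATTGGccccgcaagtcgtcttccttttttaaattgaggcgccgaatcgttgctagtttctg
In GRCr8 these are chr20:19265143-19265292, plus strand for Cdk1; chr2:33655226-33655375, minus strand for Ccnb1; chr1:186147508-186147657, plus strand for Plk1; chr10:84473094-84473243, minus strand for Top2a. The others are chr5:137255800-137255949, minus strand for Cdc20; chr1:143659331-143659480, plus strand for Prc1; chr5:142483200-142483349, minus strand for Cdca8; chr1:244536717-244536866, plus strand for Kif11. Counting the base before the start as −1, CCAAT boxes of Ccnb1 begin at −82 and −50, and those of Cdc20 at −86 and −41 with a CHR at −51 between them. Within the printed stretch Cdk1 has boxes at −81 and −49, each followed by a CHR, at −72 and −16, and Prc1 has a box at −50 and a CHR at −18; each has 1 more box further upstream. The single Plk1 CHR begins 7 bases into the transcript and so lies outside the printed stretch. In Cdca8 a CHR at −94 shares its last base with a CCAAT box at −89, the last of 4 boxes in its window, and Kif11 has a lone box at −61.

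**Figure D1:**
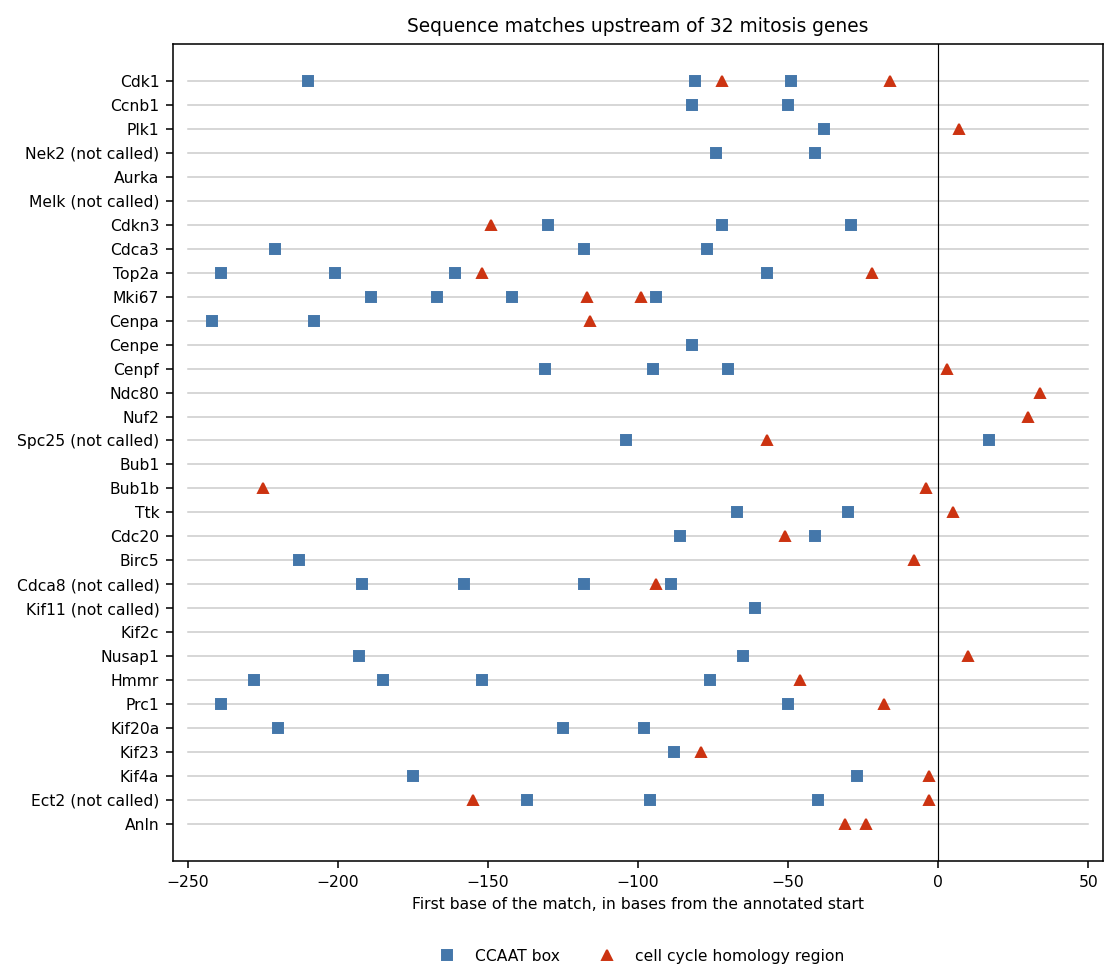
Positions of CCAAT boxes (squares) and CHR matches (triangles) in the promoters of 32 mitosis genes; the horizontal axis is the first base of the match in bases from the annotated start, and each line spans the 300 bases searched. Not called marks genes not called at 3 or 7 days against 1 day; 24 genes hold a CCAAT and 22 a CHR.

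Genes with and without a called rise both held the motifs. Of the 26 genes with an entry that were called higher at 3 or 7 days than at 1 day, 57.7% held both, and of the 6 called at neither, 3 did. Aurka, Bub1 and Kif2c were called and Melk was not, and none of these 4 held either motif. The rarer spelling counted as a CHR was TTCGAA. The second group is too small for its share to be compared with the first.

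From 1 to 3 days of obstruction most of the mitosis genes rose. All 37 estimates were above 0, with a median log2 fold change of 1.37 (all tested genes: −0.014) and a range from 0.23 to 2.21. At a Benjamini-Hochberg adjusted p under 0.05 (edgeR quasi-likelihood test over 14511 genes) 25 of the 37 were called higher, where 1.16% of all tested genes were called higher. None was called lower (background 1.12%; 0 at an unadjusted p under 0.05, and 0 by DESeq2 and by limma). In 32 genes every library of day 3 had a higher FPKM than every library of day 1, as did 4.98% of tested genes. Their summed level was 58.3 to 99.3 FPKM over the day 1 libraries and 156 to 186 over those of day 3. Of the 25 called genes 17 were called in every fit that left out 1 of the 18 libraries, and Aurka, Birc5, Bub1b, Ccna2, Cdkn3, Cenpe, Hmmr and Kif23 were not (highest adjusted p = 0.114, for Bub1b). Without replicate 2 labelled 14 days, Anln, Melk, Ndc80, Nek2, Nuf2 and Ttk were called as well.

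From 3 to 7 days no further change passed the test. The edgeR test called 0 of 37 higher and 0 lower (1.05% of tested genes were called in either direction, 0.717% higher), 1 passed at an unadjusted p under 0.05 (Bub1), and DESeq2 and limma called 0 as well. The median log2 fold change was 0.22, from −0.45 for Nek2 to 0.53 for Kif2c, with standard errors from 0.15 to 0.55; 30 of the 37 estimates were above 0. No gene had groups that did not overlap, against 6.99% of tested genes with all day 7 libraries above and 1.32% with all below. The summed level spread wider at 7 days than at 3, from 155 to 244 FPKM.

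Against 1 day, the 7 day libraries were higher by a median of 1.59 on the log2 scale, with 29 of 37 called (background 12.3% called higher), 0 called lower (background 13.3%; 0 at an unadjusted p under 0.05, 0 by DESeq2 and limma) and 29 without overlap (14.3% of tested genes). The comparison uses the same day 1 libraries as that of 3 with 1 day. Anln, Ndc80, Nuf2 and Ttk were called at 7 days and not at 3 days, at 1.60, 1.59, 1.51 and 1.34 against 1.48, 1.20, 1.06 and 1.34; their changes from 3 to 7 days did not pass the test. Cdca8, Ect2, Kif11, Melk, Nek2, Racgap1, Spc25 and Tpx2 were called in neither, with estimates from 0.23 to 1.14 at 3 days and from 0.28 to 1.04 at 7 days. Of these Melk and Tpx2 were called at 7 days without replicate 2 labelled 14 days, Spc25 without its replicate 1 and Cdca8 without replicate 4 of day 7 (adjusted p = 0.0112, 0.0466, 0.0396 and 0.0477), and Tpx2 also without replicate 4 of day 1 (0.0358).

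**Figure D2:**
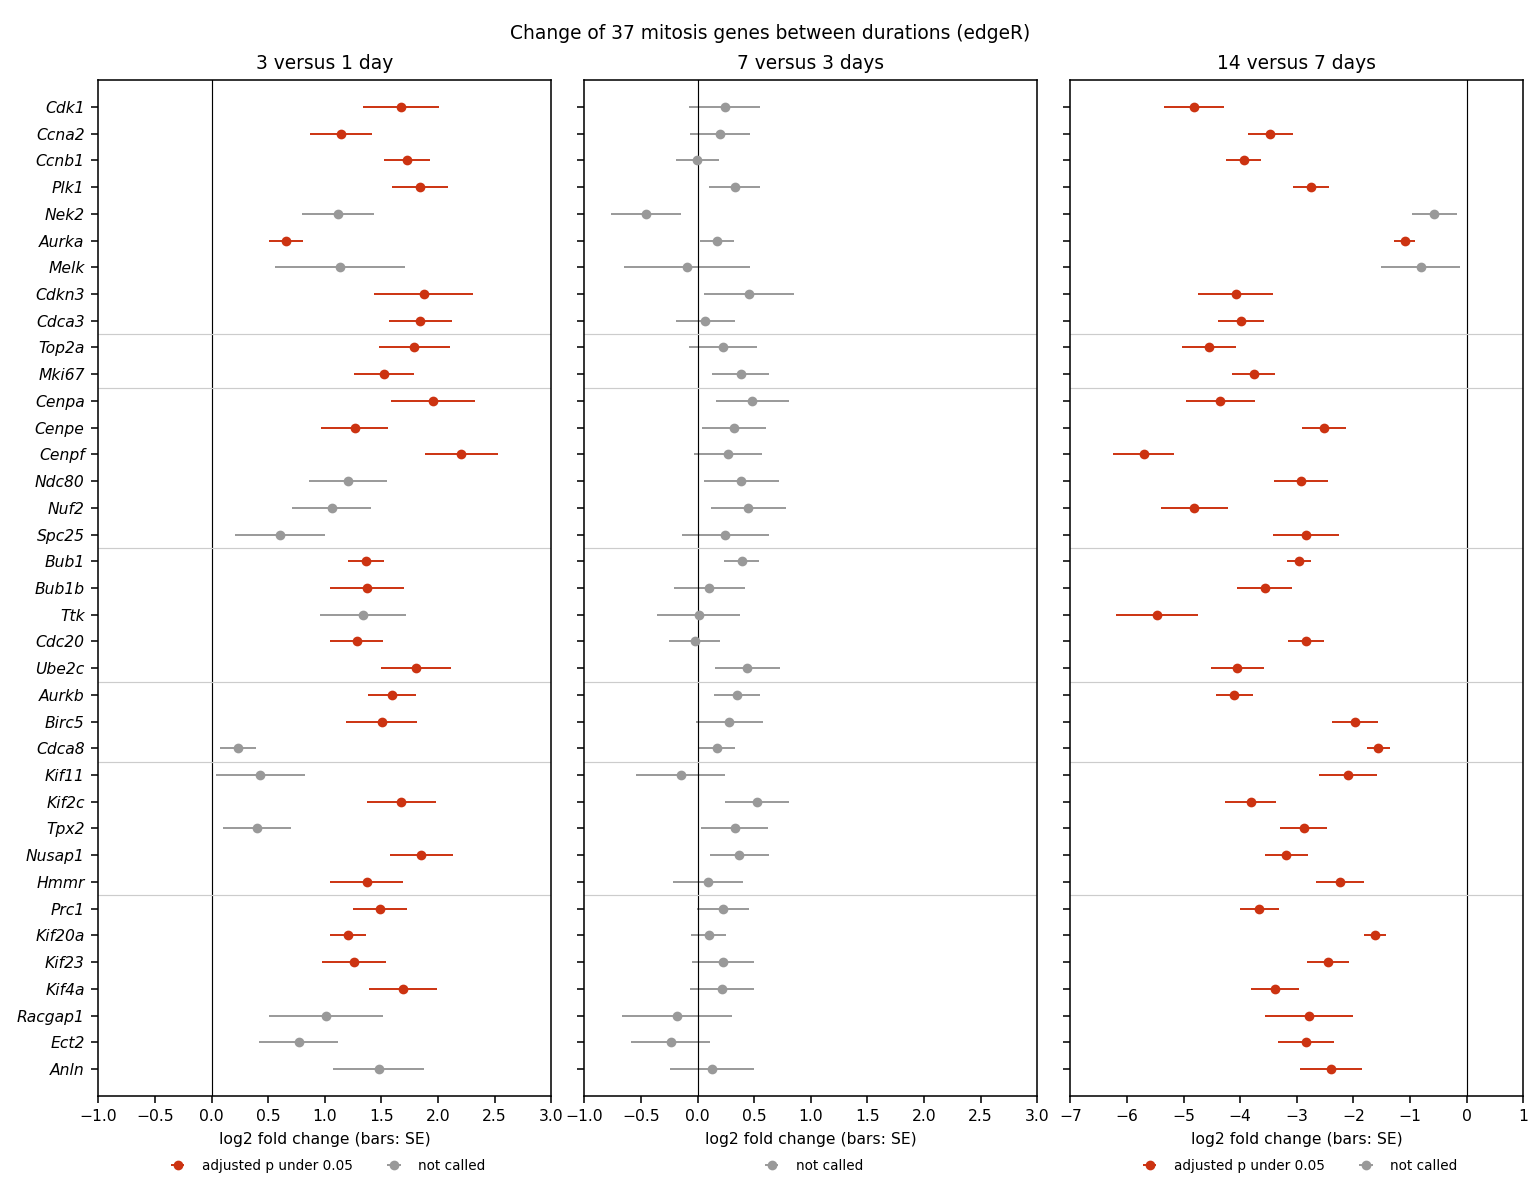
The log2 fold change of each of the 37 genes, with its standard error as the bar, for 3 versus 1 day, 7 versus 3 days and 14 versus 7 days, grouped by role from entry kinases (top) to cytokinesis (bottom). Coloured points passed the test: 25, 0 and 35 genes; the horizontal range of the third panel differs from that of the others.

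In the libraries labelled 14 days nearly the whole set was low. Against 7 days 35 of 37 genes were called lower (16.9% of tested genes), 0 higher (background 21.4%; 0 at an unadjusted p under 0.05, 0 by DESeq2 and limma), with a median of −2.96 where all tested genes had 0.07, and 35 did not overlap (26.6% of tested genes were lower without overlap and 2.93% higher). Against 1 day 23 were called lower (background 14.3%), 0 higher (background 17.7%; 0 at an unadjusted p under 0.05, 0 by DESeq2 and limma) and 26 lay lower without overlap (20.9%), with a median of −1.80. The summed level was 21.3 to 29.1 FPKM from 368 to 458 reads, and 5, 2 and 1 genes had no read in replicates 1, 2 and 3. In these same libraries summed T and NK cell markers were at 5.00 to 14.7 FPKM (11.5 to 141 in the other 15). Summed macrophage markers were at 96.3 to 350 (318 to 3957). Against 7 days 7 of 8 tested T and NK cell markers and 8 of 11 macrophage markers were called lower (16.9% of tested genes). Cd3d, Cd5 and Gzma were at 0 in all 3, but Cd5 and Gzma were also at 0 in some libraries of day 1. In replicate 3 Cd8a, at 7.60 FPKM, was above every library of days 1 and 3. There Cd163, at 3.47, was the highest of all libraries. These values stand beside the injury, adipocyte and collecting duct values above. Their part in the result was not tested, and the duration and the makeup of these libraries cannot be told apart.

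The kinases and cyclins of mitotic entry made up the largest role group. Against 1 day, 7 of its 9 genes were called higher at 3 days and 7 at 7 days. Over all tested genes 1.16% and 12.3% were called higher. All 9 estimates were above 0 in both comparisons, and at 3 days all 9 genes lay higher without overlap (4.98% of tested genes). Cdk1 (ENSRNOG00000000632, chromosome 20, 20576377 to 20591549), the kinase that drives entry, was at 4.14, 2.25, 1.20, 2.65 and 1.84 FPKM in replicates 1 to 5 of day 1, 7.41, 6.27, 8.60, 7.81 and 8.64 at day 3, 12.5, 10.9, 9.49, 6.32 and 8.76 at day 7 and 0.0738, 0.0836 and 0.656 in the libraries labelled 14 days. The libraries of day 1 lay below all those of days 3 and 7, days 3 and 7 overlapped, and at 14 days replicate 3 carried 9 of the 11 reads. Its log2 fold change was 1.67 ± 0.33 (SE) at 3 days against 1 day, a 3.19-fold rise (edgeR adjusted p = 0.0165), and 0.24 ± 0.32 from 3 to 7 days (adjusted p = 0.759). Ccnb1 (ENSRNOG00000058539, chromosome 2, 30783915 to 30791221), cyclin B1, which activates CDK1, had 3.49, 2.55, 1.93, 2.95 and 2.31 FPKM at day 1 and 8.73, 6.86, 9.84, 8.51 and 10.0 at day 3. It had 12.5, 9.43, 9.38, 7.72 and 7.07 at day 7 and 0.489, 0.554 and 0.386 at labelled day 14. All 5 libraries of day 3 exceeded the highest of day 1, and the log2 change was 1.72 ± 0.20 (adjusted p = 0.000793), then −3.94 from 7 to 14 days (adjusted p = 8.69e-07).

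The other called genes of entry rose at 3 days by amounts that differed: Plk1, the polo-like kinase of centrosome maturation, by 1.84 on the log2 scale, Cdkn3, a CDK phosphatase, by 1.88, Cdca3, an adaptor for the destruction of WEE1, by 1.85, Ccna2, cyclin A2, by 1.14 and Aurka, the centrosomal Aurora kinase, by 0.66. Aurka had the smallest rise of the called members. The calls of Cdkn3, Ccna2 and Aurka were lost in 11, 11 and 9 of the 18 fits that left out 1 library (adjusted p up to 0.109, 0.11 and 0.0836). Nek2, a kinase of centrosome separation, and Melk, a kinase of the late cell cycle, were not called at 1.11 ± 0.32 and 1.14 ± 0.57. They were also the only members not called at 14 against 7 days. For Melk this rested on replicate 2: without it the estimate was −3.65 (adjusted p = 7.17e-05) in place of −0.81 (adjusted p = 0.38).

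Both genes of chromosome structure were called higher at 3 days and at 7 days against 1 day (1.16% and 12.3% of all tested genes). Top2a (ENSRNOG00000053047, chromosome 10, 86901007 to 86932154) encodes topoisomerase II alpha, which untangles sister chromatids. It stood at 3.16, 1.57, 1.02, 2.33 and 1.45 FPKM at day 1, at 6.15, 6.71, 7.25, 6.92 and 6.12 at day 3 and at 10.0, 9.69, 8.27, 7.27 and 5.44 at day 7. In the libraries labelled 14 days it was at 0.0992, 0.478 and 0.245, below every other library. Mki67 (ENSRNOG00000028137, chromosome 1, 207993895 to 208020454) encodes Ki-67, the coat protein of mitotic chromosomes used to stain cycling cells, and was at 2.29, 1.50, 0.813, 1.68 and 1.05 FPKM at day 1, 4.62, 3.77, 4.97, 4.28 and 3.63 at day 3, 7.06, 6.94, 5.81, 4.61 and 4.65 at day 7 and 0.175, 0.342 and 0.518 at labelled day 14. In both genes replicate 1 was the highest and replicate 3 the lowest of day 1, and none of the 5 reached the lowest of day 3. From 3 to 7 days Top2a differed by 0.22 ± 0.30 and Mki67 by 0.38 ± 0.25, neither past the test (adjusted p = 0.761 and 0.457), and against 7 days the libraries labelled 14 days were lower by −4.55 and −3.76 (both called).

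**Figure D3:**
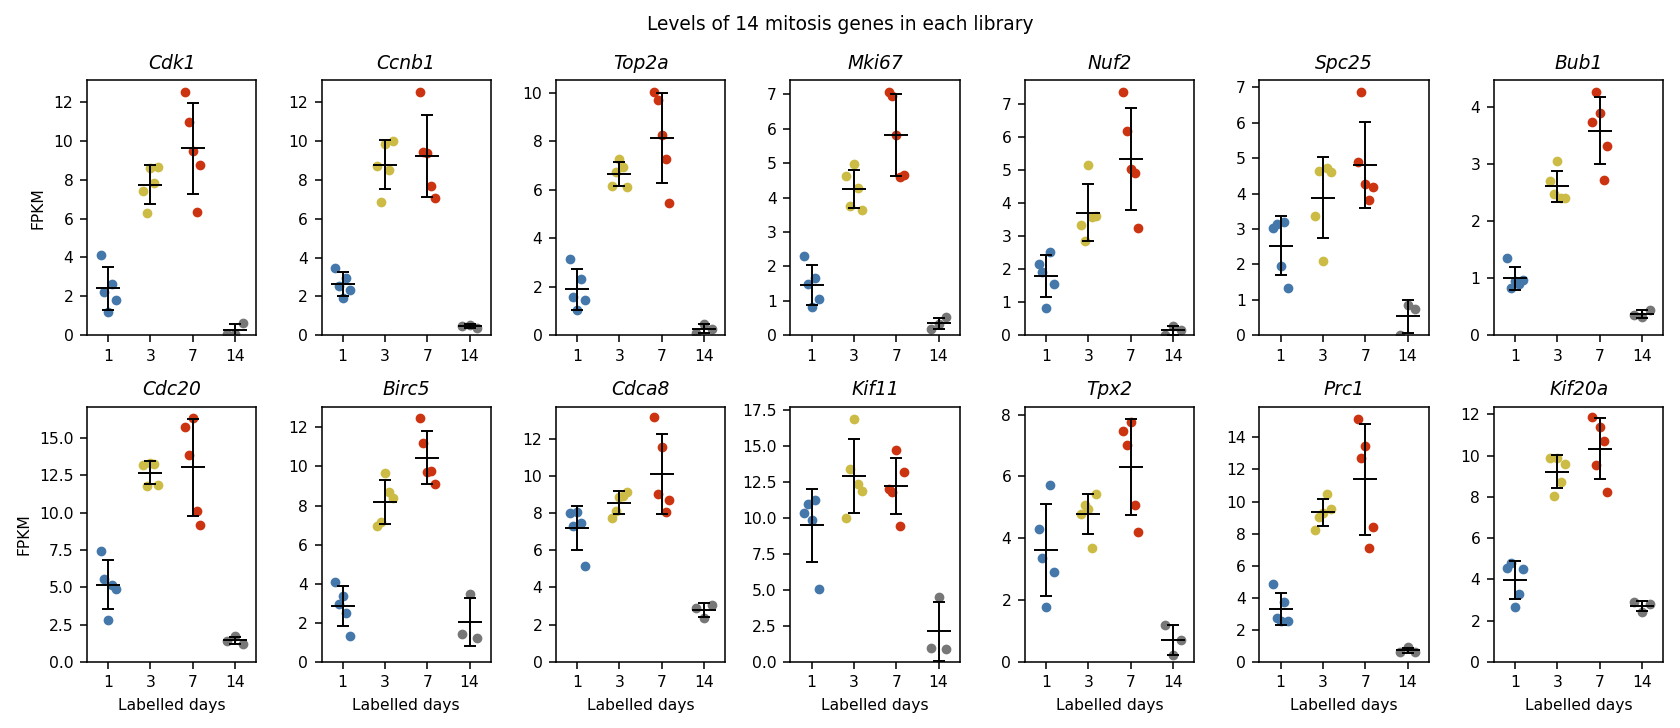
FPKM of 14 mitosis genes, the 2 of each role group with the highest mean level, in each of the 18 libraries; points are libraries, horizontal marks are means and bars SD (n = 5, 5, 5 and 3), and each vertical axis starts at 0. Cdk1, Ccnb1, Top2a and Cdc20 are higher at 3 than at 1 day without overlap, whereas Kif11, Tpx2 and Cdca8 overlap.

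Of the 6 genes of centromere and kinetochore, the structure that binds chromosomes to the spindle, 3 were called higher at 3 days and 5 at 7 days. Both counts are against 1 day, where 1.16% and 12.3% of all tested genes were called higher. All 6 estimates were above 0 in both. Cenpf, a large protein of the outer kinetochore, had the largest rise of the set at 3 days (2.21 ± 0.32, 4.62-fold, adjusted p = 0.00263) and had 8 reads in all in the libraries labelled 14 days. Cenpa, the histone H3 variant that marks the centromere, rose by 1.96 and had 2 reads in those libraries, too few for a fold. Cenpe, the kinesin that carries chromosomes to the plate, rose by 1.27, a call lost in 8 of the 18 fits that left out 1 library (adjusted p up to 0.107).

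The NDC80 complex grips the microtubule, and its 3 subunits in the set were not called at 3 days. Nuf2 (ENSRNOG00000002711, chromosome 13, 87818391 to 87847263) was at 2.14, 1.90, 0.821, 2.51 and 1.55 FPKM at day 1, 3.34, 2.84, 5.14, 3.58 and 3.61 at day 3, 7.34, 6.16, 5.02, 4.90 and 3.23 at day 7 and 0, 0.282 and 0.164 at labelled day 14. Its libraries of days 1 and 3 did not overlap, although the change of 1.06 ± 0.35 missed the threshold (adjusted p = 0.119); against 1 day it was called at 7 days (1.51 ± 0.35, adjusted p = 0.00501). Spc25 (ENSRNOG00000006731, chromosome 3, 55438536 to 55451798) was at 3.04, 3.14, 1.97, 3.20 and 1.32 at day 1, 3.38, 4.63, 2.10, 4.72 and 4.62 at day 3, 4.88, 6.86, 4.27, 3.81 and 4.19 at day 7 and 0, 0.852 and 0.743 at labelled day 14. In Spc25 replicate 3 of day 3 lay among the libraries of day 1, and neither the 3 day (0.60 ± 0.40) nor the 7 day estimate (0.85 ± 0.40) against 1 day was called. Ndc80 itself had 1.20 ± 0.35 at 3 days and 1.59 ± 0.35 at 7 days, called in the second. Spc24, the fourth subunit and no member of the set, was called higher at 3 days (1.08 ± 0.27, adjusted p = 0.0451), a call lost in 13 of the 18 fits that left out 1 library (adjusted p up to 0.13).

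Of the 5 checkpoint and APC/C genes 4 were called higher at 3 days and all 5 at 7 days, each against 1 day. The shares over all tested genes were 1.16% and 12.3%. All 5 estimates were above 0 in both comparisons. Bub1 (ENSRNOG00000032778, chromosome 3, 120373604 to 120404910), a checkpoint kinase at the kinetochore, was at 1.35, 0.837, 0.955, 0.892 and 0.978 FPKM at day 1 and 2.72, 2.48, 3.06, 2.41 and 2.40 at day 3. It was at 3.75, 4.28, 3.90, 2.73 and 3.32 at day 7 and 0.349, 0.317 and 0.449 at labelled day 14. Days 1 and 3 did not overlap, and it had the smallest adjusted p of the set at 7 days against 1 day (1.75 ± 0.16, adjusted p = 1.82e-05). Cdc20 (ENSRNOG00000028415, chromosome 5, 137260728 to 137264931) encodes the activator of the APC/C that the checkpoint holds back, and reached 13.2, 11.8, 13.4, 13.3 and 11.9 FPKM at day 3 from 7.45, 5.59, 2.83, 5.14 and 4.90 at day 1. At day 7 it was at 15.7, 13.9, 16.3, 10.1 and 9.17, with replicates 4 and 5 below every library of day 3 and the other 3 above, and at labelled day 14 at 1.42, 1.70 and 1.22. The net change from 3 to 7 days was −0.026 ± 0.23 (adjusted p = 0.972).

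Ube2c, the ubiquitin-conjugating enzyme of the APC/C, rose by 1.81 ± 0.31 at 3 days, and Bub1b, the checkpoint protein BUBR1, by 1.37 ± 0.33. The call of Bub1b was lost in 10 of the 18 fits that left out 1 library, with an adjusted p up to 0.114. Ttk, the kinase MPS1 at the head of the checkpoint, had 1.34 ± 0.38 and was not called (adjusted p = 0.0775). It had 2 reads in all in the libraries labelled 14 days.

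The chromosomal passenger complex corrects faulty attachments and later steers cytokinesis, and its 3 genes in the set differed. Aurkb, its kinase, rose by 1.59 ± 0.21 at 3 days. Birc5 (ENSRNOG00000050819, chromosome 10, 106856097 to 106864413), survivin, was at 4.09, 2.94, 3.35, 2.50 and 1.34 FPKM at day 1, 6.94, 7.14, 9.69, 8.71 and 8.40 at day 3, 12.5, 11.2, 9.71, 9.75 and 9.13 at day 7 and 1.44, 3.46 and 1.24 at labelled day 14. Every library of day 3 was above day 1, while the libraries labelled 14 days overlapped those of day 1; the changes were 1.50 ± 0.32 (adjusted p = 0.0229) at 3 days and −0.19 at 14 days, both against 1 day, the latter not called (adjusted p = 0.752; −0.99 and called without replicate 2 labelled 14 days, adjusted p = 0.0451). The call of Birc5 at 3 days was lost in 4 of the 18 fits that left out 1 library (adjusted p up to 0.0653). Cdca8 (ENSRNOG00000031431, chromosome 5, 142911305 to 142933526), borealin, was already at 8.01, 7.32, 8.06, 7.45 and 5.15 FPKM at day 1 and at 7.71, 8.12, 8.87, 8.92 and 9.16 at day 3. It was at 13.2, 9.02, 11.5, 8.07 and 8.72 at day 7 and 2.90, 2.34 and 3.07 at labelled day 14. Replicate 5 was low at day 1 and the other 4 overlapped day 3, and the change of 0.23 ± 0.16 at 3 days was the smallest of the set (adjusted p = 0.468; 0.12 without replicate 5 of day 1). At 14 against 7 days Cdca8 was called lower (−1.56).

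Among spindle motors and microtubule binders 3 of 5 were called higher at 3 days and 3 at 7 days, each against 1 day. Of all tested genes 1.16% and 12.3% were called higher. All 5 estimates were above 0 in both comparisons. Kif11 (ENSRNOG00000056069, chromosome 1, 256035866 to 256088299), the kinesin that pushes the spindle poles apart, was the most abundant of the set at day 1. It was at 10.4, 11.0, 9.82, 11.2 and 5.06 FPKM at day 1, 9.98, 13.4, 16.9, 12.4 and 11.9 at day 3, 12.0, 11.8, 14.7, 9.41 and 13.2 at day 7 and 0.929, 4.47 and 0.918 at labelled day 14. Days 1, 3 and 7 overlapped and replicate 5 of day 1 was far below its group; the change at 3 days was 0.43 ± 0.39 (adjusted p = 0.6), and 0.26 without that library. Replicate 2 held 119 of the 175 Kif11 reads of the libraries labelled 14 days, and the estimate against 7 days was −2.09 with it and −3.54 without it, called both ways.

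Tpx2 (ENSRNOG00000008165, chromosome 3, 148327965 to 148370187), which seeds microtubules and activates Aurora A, was at 4.30, 3.35, 1.77, 5.72 and 2.91 FPKM at day 1, 4.78, 5.08, 4.93, 3.69 and 5.42 at day 3, 7.45, 7.01, 7.76, 5.08 and 4.21 at day 7 and 1.19, 0.233 and 0.690 at labelled day 14. Replicates 1 and 4 of day 1 lay within the range of days 3 and 7, and neither 0.40 ± 0.30 at 3 days nor 0.73 ± 0.30 at 7 days was called. Kif2c, the kinesin that takes microtubules apart at the kinetochore, Nusap1, a spindle bundling protein, and Hmmr, a spindle and hyaluronan-binding protein, rose by 1.68, 1.85 and 1.37 at 3 days. The call of Hmmr was lost in 8 of the 18 fits that left out 1 library (adjusted p up to 0.107). Against 1 day they stood at 2.20, 2.22 and 1.46 at 7 days.

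For the central spindle and cytokinesis, 4 of 7 genes were called higher at 3 days and 5 at 7 days, each against 1 day. Of all tested genes 1.16% and 12.3% were called higher. All 7 estimates were above 0 in both comparisons. Prc1 (ENSRNOG00000013057, chromosome 1, 142087208 to 142108746), the bundler of antiparallel microtubules in the midzone, was at 4.88, 2.74, 2.56, 3.73 and 2.57 FPKM at day 1 and 8.22, 9.06, 9.28, 10.5 and 9.53 at day 3. At day 7 it was at 15.2, 12.7, 13.5, 7.09 and 8.39 and at labelled day 14 at 0.590, 0.911 and 0.636. No library of day 1 reached day 3, and at day 7 replicates 1 to 3 stood above all of day 3 while replicate 4 stood below; the change was 1.49 ± 0.24 at 3 days (adjusted p = 0.00529) and 0.22 ± 0.23 from 3 to 7 days. Kif20a (ENSRNOG00000024428, chromosome 18, 27424328 to 27432814), a kinesin that brings the passenger complex to the midzone, was at 4.53, 4.80, 2.66, 3.31 and 4.51 FPKM at day 1, 9.89, 8.04, 9.87, 8.73 and 9.60 at day 3, 11.9, 9.52, 11.4, 10.7 and 8.24 at day 7 and 2.90, 2.44 and 2.82 at labelled day 14. It rose by 1.21 ± 0.16 at 3 days without overlap, and the libraries labelled 14 days overlapped those of day 1, with a change of −0.31 that was not called (adjusted p = 0.229).

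Kif23 and Kif4a, both kinesins of the midzone, rose by 1.26 and 1.69 at 3 days; that of Kif23 lost the call in 7 of the 18 fits that left out 1 library (adjusted p up to 0.0854), and that of Kif4a in none. The 3 genes that set and shape the cleavage furrow were not called at 3 days: Racgap1, which recruits the exchange factor ECT2, at 1.01 ± 0.50, Ect2 at 0.77 ± 0.35 and Anln, the scaffold anillin, at 1.48 ± 0.40. Of these Anln alone was called at 7 days against 1 day (1.60 ± 0.40, adjusted p = 0.00833). All 3 were called lower at 14 against 7 days, Racgap1 from 6 reads in all.

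At days 1 and 7 the genes tended to be high or low in the same libraries of a group. At day 1 replicate 1 had the highest FPKM of its group in 23 of the 37 genes and replicate 3 the lowest in 21. At day 7 replicate 1 was highest in 20, and the lowest library was replicate 5 in 24 and replicate 4 in 13, so that no gene had its lowest value in replicates 1 to 3. At day 3 replicate 3 was highest in 17 and replicate 2 lowest in 15. Replicates 1 to 3 labelled 14 days were highest in 8, 16 and 13 genes and lowest in 14, 11 and 11. Such counts were not made over all tested genes. The summed levels at day 7 were 244, 222, 220, 158 and 155 FPKM in replicates 1 to 5.

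Leukocyte markers differed between the same libraries. Summed macrophage markers at day 7 were 1062, 3740, 851, 3957 and 1609 FPKM and T and NK cell markers 30.2, 44.0, 50.7, 141 and 46.4 in replicates 1 to 5. Lyz2 made up most of these macrophage sums, at 741, 2990, 602, 2985 and 980 FPKM. Replicates 2 and 4 had the highest macrophage sums, the former with the second highest mitosis sum of the day and the latter with the second lowest. Across durations macrophage markers were at 318 to 697 FPKM at day 1 and 704 to 1311 at day 3, and fibroblast markers at 144 to 228, 180 to 261 and 483 to 739 at days 1, 3 and 7. Proximal tubule markers were at 365 to 987, 747 to 4011 and 729 to 2799 FPKM at days 1, 3 and 7. At 3 against 1 day the estimates of 10 of 11 macrophage markers (median 0.71) and of all 12 proximal tubule markers (median 0.99) were above 0. The edgeR test called 0 of either list, DESeq2 0 and 2, and limma 0 and 0 (edgeR called 1.16% of all tested genes higher). At an unadjusted p under 0.05 by edgeR 3 and 5 were higher, as were 8.53% of all tested genes. At 7 against 1 day edgeR called higher 8 of 11 macrophage, 8 of 8 tested T and NK cell and 7 of 8 fibroblast markers. It called 1 of 12 proximal tubule markers higher and 12.3% of all tested genes. The part of these cells in the result was not tested, and bulk libraries do not show which cells held the transcripts.

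**Figure D4:**
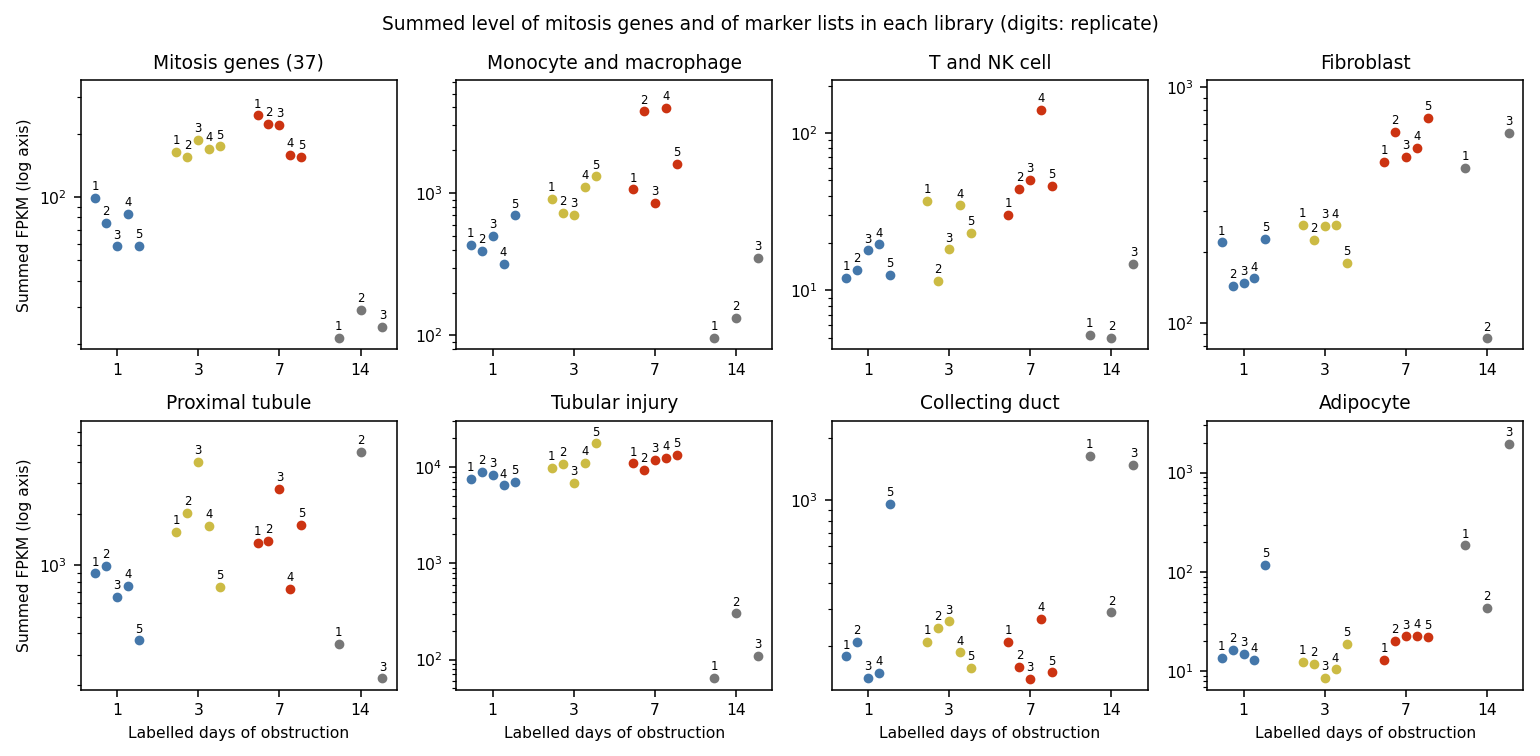
Summed FPKM of the 37 mitosis genes and of 7 marker lists in each library, on log axes, with the replicate number beside each point. The mitosis genes are at 58.3 to 99.3 at day 1, 156 to 186 at day 3, 155 to 244 at day 7 and 21.3 to 29.1 in the libraries labelled 14 days, where the tubular injury list is at 64.2 to 303.

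As levels per length these transcripts were scarce. The median over the 37 genes was 1.47, 3.89, 4.93 and 0.372 FPKM at days 1, 3, 7 and 14, while the median over the tested genes stayed between 9.67 and 10.8. The highest group means were Kif11 at day 1 (9.50) and day 3 (12.9), Cdc20 at day 7 (13.0) and Cdca8 at labelled day 14 (2.77).

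**Figure D5:**
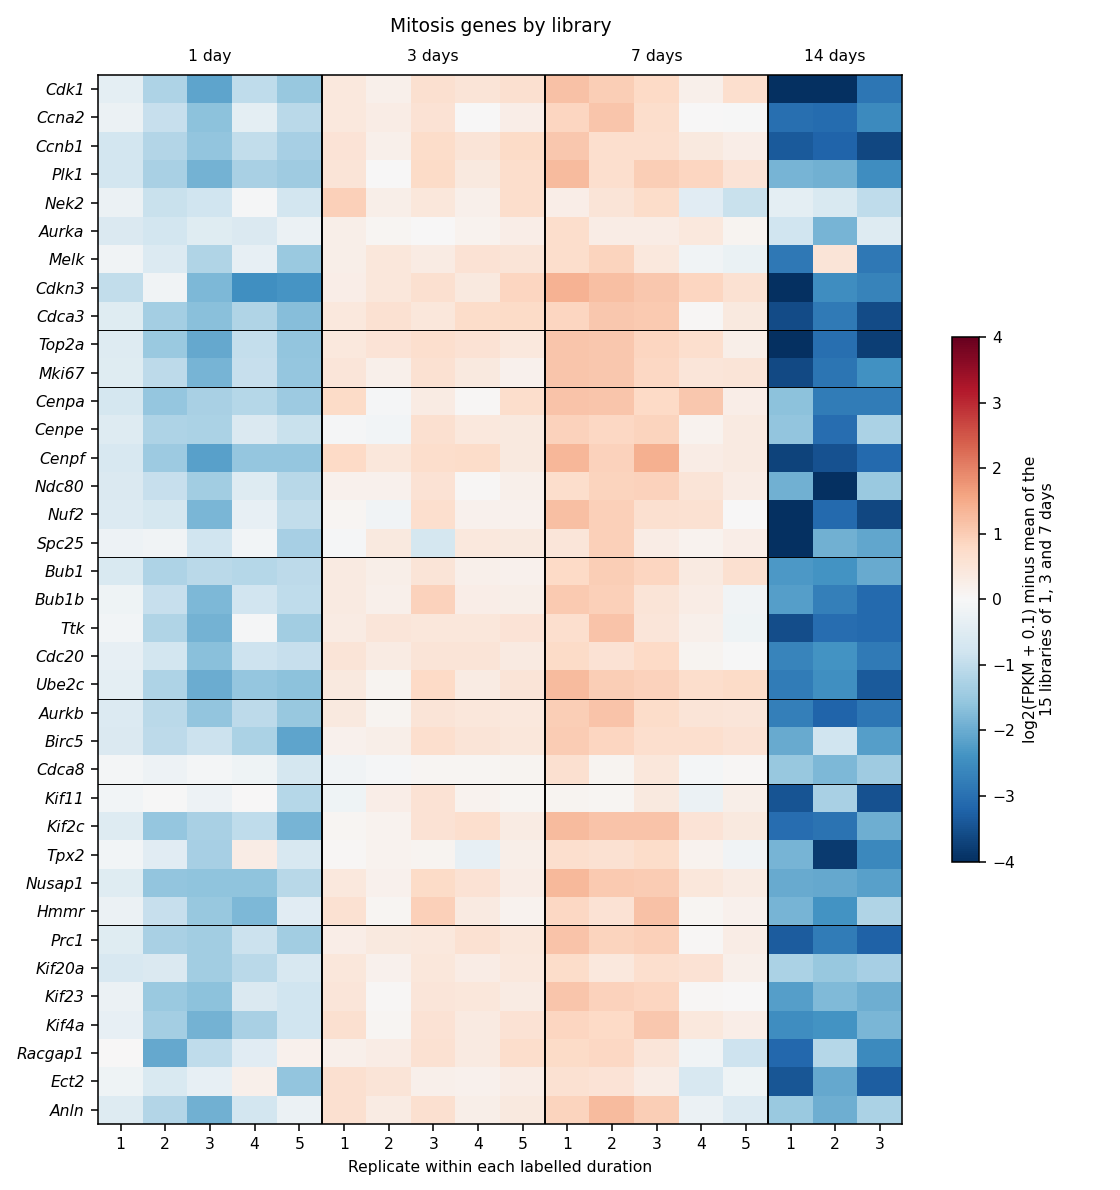
Level of each of the 37 genes in each library as log2(FPKM + 0.1) minus the mean over the 15 libraries of 1, 3 and 7 days; the colour scale ends at −4 and 4, and role groups are parted by lines. The blue of day 1 turns red at day 3 for most genes, replicates 4 and 5 of day 7 are paler than replicates 1 to 3, and Melk in replicate 2 labelled 14 days is the one red cell of that group.

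Other genes of mitosis, 99 tested from 5 lists of textbook components, moved the same way in part. At 3 days against 1 day 23 were called higher and 1 lower (median 0.45), where 1.16% and 1.12% of all tested genes were. At 7 against 3 days 1 was called higher (0.717% of all tested genes). At 7 against 1 day 48 were called higher and 7 lower (median 0.57, 12.3% and 13.3% of all tested genes). At 14 against 7 days 2 were called higher and 57 lower (median −0.85, 21.4% and 16.9%). The 3 with the smallest p at 3 days were Spag5, which anchors spindle poles (1.61 ± 0.23, adjusted p = 0.00224), Incenp, the scaffold of the passenger complex (0.86 ± 0.14, adjusted p = 0.00541), and Espl1, separase (1.35 ± 0.22, adjusted p = 0.00575). Zwint, a kinetochore linker, fell by 0.68 from 178 ± 27.6 to 113 ± 13.9 FPKM (mean ± SD, n = 5; adjusted p = 0.0123), a level far above that of every gene of the set. Pimreg, listed under an older name, was the 1 gene called at 7 against 3 days (1.68 ± 0.38, from 0.944 ± 0.350 to 3.23 ± 1.21 FPKM, adjusted p = 0.0472), and it lost the call without replicate 2 of day 3 (adjusted p = 0.14) and in 11 other fits that left out 1 library.

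By role, 6 of 12 genes of condensins and cohesin protection, 9 of 23 other spindle genes, 4 of 20 genes of entry and cytokinesis, 2 of 22 of the kinetochore and 2 of 22 of the checkpoint and APC/C were called higher at 3 days. Over all tested genes the share called higher was 1.16%. The last of these lists, which includes the core subunits of the APC/C, had a median of −0.01. At 7 against 1 day Tacc3, a spindle pole protein that works with clathrin, rose by 1.62 ± 0.21, beside Spag5 (1.93) and Espl1 (1.71). At 14 against 7 days Kif22, the chromosome-arm kinesin, had −3.10 ± 0.26, Spag5 −4.02 and Tacc3 −3.27; Anapc5, an APC/C subunit, was called the other way (0.46 ± 0.092).

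DNA replication precedes mitosis, and its genes were counted beside the mitosis genes. Of 40 genes of replication and S phase, 2 were called higher at 3 days, where 1.16% of all tested genes were, and the median was 0.33. They were Ccne2, cyclin E2 (0.76 ± 0.15, adjusted p = 0.0135), and Tk1, thymidine kinase (1.02 ± 0.23, adjusted p = 0.0353). The call of Tk1 was lost when replicate 3 of day 1 was left out (adjusted p = 0.0968) and in 7 other fits that left out 1 library. At 3 days against 1 day 38 of the 40 estimates were above 0. At an unadjusted p under 0.05 by edgeR 15 were higher and 0 lower, where 8.53% and 9.55% of all tested genes were. The difference between the lists was not tested. At 7 against 1 day 8 of the 40 were called higher, where 12.3% of all tested genes were, led by Cdc45, a component of the replicative helicase (0.99 ± 0.17). At 14 against 7 days 26 were called lower (median −0.94), where 16.9% of all tested genes were. Among them were Chaf1b, a histone chaperone at the fork (−1.70), Uhrf1, which keeps DNA methylation through replication (−3.33), and Mcm3, a helicase subunit (−2.09).

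The factors known to drive mitotic transcription were measured as well. Foxm1, the forkhead factor of these promoters, rose from 1.37 ± 0.432 to 3.23 ± 0.501 FPKM at 3 days (1.23 ± 0.22, adjusted p = 0.00852). It was the 1 gene of 23 regulators called there, where 1.16% of all tested genes were called higher and 1.12% lower. It was at 3.48 ± 0.780 FPKM at day 7 and 0.817 ± 0.260 in the libraries labelled 14 days (−1.79 ± 0.28 against 7 days). Mybl2, B-MYB, had 0.82 ± 0.27 at 3 days, not called, and 0.97 ± 0.27 at 7 days against 1 day, called. Tfdp1, the partner of E2F factors, rose by 0.42 at 7 days. Of the 23 regulators 3 were called higher and 3 lower at 7 against 1 day. These shares are near those of all tested genes (12.3% and 13.3%).

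Of the pocket proteins that hold E2F factors in check, Rbl1, p107, fell by 0.81 at 7 days against 1 day (adjusted p = 0.0072) and Rb1, the retinoblastoma protein, fell by 0.36 (adjusted p = 0.0175; 0.0507 without replicate 5 of day 7). E2f3 was at −0.50 ± 0.18 (adjusted p = 0.0495) and lost the call in 11 of the 18 fits that left out 1 library (adjusted p up to 0.123). Against 3 days Rb1 was at −0.46 ± 0.10 (adjusted p = 0.0472), a call lost in 11 of the 18 such fits (adjusted p up to 0.128).

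Of 5 tested CDK inhibitors, which hold the cycle back, 1 was called among the first 3 durations. It was called higher at 7 against 1 day, as were 12.3% of tested genes. Cdkn2c, p18, was at 2.62 ± 1.00, 5.71 ± 1.06 and 7.79 ± 0.544 FPKM at days 1, 3 and 7 and was called at 7 against 1 day (1.51 ± 0.32, adjusted p = 0.00319). Cdkn1a, p21, the inhibitor induced by p53, was at 19.5 ± 3.93, 21.4 ± 4.85 and 23.4 ± 6.28 FPKM, with 0.17 ± 0.19 at 7 against 1 day (adjusted p = 0.539). In the libraries labelled 14 days Cdkn1b, p27, which keeps resting cells out of the cycle, was higher than at 7 days (1.02 ± 0.21, adjusted p = 0.00156) and Cdkn1a lower (−0.96 ± 0.23, adjusted p = 0.00432).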

How the data were processed

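Per the submitters' processing notes, fastp 0.19.7 and HISAT2 2.0.4 were used. How reads were counted, with or without strand, on which annotation and build, was not given in the sources used here; overlapping genes may therefore share reads. Per the file headers, the deposited table gives a read count and an FPKM value per gene and library. The deposited FPKM equal the count over 1 length per gene and the library total (8250 genes checked, largest ratio of implied lengths 1.000017).

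The members and the gene lists were chosen with earlier results of these data known. After filterByExpr (minimum count 10, total 15), 14511 genes were scaled by TMM, and edgeR 4.0.16 under R 4.3.3 fitted a quasi-likelihood model over all 18 libraries, 1 coefficient per labelled duration, with Benjamini-Hochberg adjustment over all tested genes in each comparison and calls at 0.05. The standard error is the log2 fold change over the square root of F. The script was tested on simulated data. Alternatives used DESeq2 1.42.0, limma 3.58.1 on log2(FPKM + 1) and log2(FPKM + 0.1), RLE factors, no filter, fewer libraries, no mitochondrially encoded genes, a replicate block and each library left out in turn. Values per library are given for the 2 members of each role group with the highest mean FPKM; of the other mitotic and replication lists, up to 3 called genes per comparison with the smallest p are named, with the leading gene that went the other way, and regulators freely. Older symbols, from the RefSeq table, matched 7 names of the lists.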

Additional observations from a re-analysis of the deposited data

Results flagged for a closer look

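In 3 of the 42 groups of 5 libraries examined (14 genes at days 1, 3 and 7), 1 library lay apart from the rest by Dixon's criterion at the 95% level, which chance alone meets in about 1 in 20 groups. Bub1 at 1.352 FPKM in replicate 1 of day 1 was the highest of its group, still below all libraries of day 3. Replicate 5 of day 1 was the lowest of its group for Cdca8 at 5.149 FPKM and for Kif11 at 5.056 FPKM. That library also had higher summed collecting duct and adipocyte markers than the others of day 1, and the part of this in the low values was not tested.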

How the results depend on the processing

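The number of mitosis genes called kept within 1.5 times the reported number under every alternative run except the replicate block at 3 against 1 day, which left 16 of 25. The labels number the libraries of each group and do not say whether equal numbers were paired. Deviations of same-numbered libraries had a median r of 0.041 (24 pairs, from −0.42 to 0.40). Those of other numbers had −0.034 (96 pairs, from −0.64 to 0.53). Of these pairs 10 of 24 and 24 of 96 had an r over 0.1. Such correlations cannot settle whether there was a pairing. The block gave 0, 29, 35 and 22 calls at 7 against 3, 7 against 1, 14 against 7 and 14 against 1 day. Leaving out 1 library gave 17 to 31 calls at 3 against 1 day, 0 to 0 at 7 against 3, 29 to 31 at 7 against 1, 35 to 36 at 14 against 7 and 20 to 28 at 14 against 1. The 17 came without replicate 3 or 4 of day 1 or of day 3, and the 31 without replicate 2 labelled 14 days; 17 of the 25 genes were called in every such fit. Without the libraries labelled 14 days 31, 0 and 32 were called at 3 against 1, 7 against 3 and 7 against 1 day, and 30, 0 and 31 when replicate 5 of day 1 was left out too. On the FPKM scale the median of all tested genes shifted to −0.26 (pseudocount 1) and −0.32 (0.1) at 14 against 7 days and to −0.19 and −0.24 at 14 against 1 day. Among the genes named and the alternatives run, signs changed at 7 against 3 days and at 14 against 1 day. At 7 against 3 days 9 of the 37 genes changed sign, 0 of them called in any fit: Ccnb1 (−0.0015) went to 0.050 and 0.053 and Cdc20 (−0.026) to 0.005 and 0.003 by limma with pseudocounts of 1 and 0.1, and Ttk (0.0088) to −0.007 without the filter and −0.048 under the block. Leaving out 1 library gave −0.127 to 0.075 for Ccnb1, −0.137 to 0.073 for Cdc20, −0.193 to 0.144 for Ttk, −0.088 to 0.318 for Anln, −0.030 to 0.286 for Bub1b, −0.035 to 0.206 for Cdca3, −0.109 to 0.276 for Hmmr, −0.244 to 0.031 for Melk and −0.338 to 0.010 for Racgap1. At 14 against 1 day Nek2 (0.088) went to −0.069 under the block, to between −0.075 (without replicate 2 labelled 14 days) and 0.327 (without replicate 3) when 1 library was left out, −0.055 without replicate 1 labelled 14 days, and −0.071 and −0.133 by limma with pseudocounts of 1 and 0.1. Melk (0.23) went to −0.35 under the block, to between −2.61 (without replicate 2 labelled 14 days, adjusted p = 0.00127) and 0.766 (without replicate 3) when 1 library was left out, and −0.29 and −0.99 by limma. Birc5 (−0.19) went to 0.04 and 0.13 without replicates 1 and 3 labelled 14 days. The causes were not tested. The 37 genes had 368 to 458 reads in all in each library labelled 14 days and 1327 to 6253 in the others, so single genes there rest on few reads.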

Other observations

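The same motifs were counted in the other mitotic genes and the replication genes. Of 89 other mitotic genes with an entry, 58.4% held a CCAAT, 52.8% a CHR and 33.7% both, against 37.7%, 19.5% and 7.83% of all promoters. Of 33 replication genes, 63.6% held a CCAAT and 18.2% a CHR. Where a promoter held several CCAAT boxes, 7 of the 33 neighbouring pairs in the mitosis genes (21.2%) began 30 to 36 bases apart, as did 11.9% of 4336 pairs in all promoters. These are descriptions with no test.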
